A study of Mus musculus with 2 samples.

Results

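The genes described here are the clustered replication histone genes of the mouse, taken as every gene whose symbol starts with Hist1h, Hist2h, Hist3h or Hist4h. That rule gave 67 of the 32285 genes in the count tables, and all 67 matched the GENCODE M21 annotation by gene ID. By family they are 6 H1, 18 H2A, 18 H2B, 12 H3 and 13 H4 genes. The rule uses names alone and holds no measured value, but it was chosen with earlier results of these data known. The cell groups in which the members are compared are set by the UMIs of other genes.

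The counts are single-cell 3′ RNA libraries of viably frozen mouse spleen cells, sorted for the leukocyte antigen CD45.2 and the integrin CD11b, with 1 library for each of the treatments given as Low B12 and High B12. The labels give B12 as the treatment, and no genotype, dose, age or number of mice, while the series title names Tet2-deficient blood formation. B12 is a vitamin that methionine synthase needs to work. With 1 library per condition no difference between conditions could be tested, and every interval below is a 95% interval for counting error only, which leaves out the variation between mice and between libraries. In all pairs of values the low-B12 library comes first.

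Core histones H2A, H2B, H3 and H4 form the nucleosome, and linker histone H1 binds the DNA between nucleosomes. Cells make most of their histone protein during S phase from these clustered gene copies, whose mRNAs are unusual in ending in a conserved stem-loop that is bound by the protein SLBP, in place of a poly(A) tail, and are degraded when replication stops. A few of the genes can also give longer, polyadenylated mRNAs, which cells outside the cycle may contain. Replacement histones such as H3f3a and H3f3b lie outside the clusters and are made throughout the cycle. The libraries were made with a 3′ kit, which primes on poly(A), so the counts follow the captured RNA rather than all histone mRNA.

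Stem-loop sites were searched in annotated transcripts after the stop codon with the pattern of 16 bases that a histone stem-loop follows. It was found in 51 of 21762 coding genes (0.234%), of which 46 were members. The sites of 2 members that were tied to cycling cells and 3 that were also found in resting cells are shown because the stem-loop itself, in capitals, hardly differs between them, while the transcript that follows does. Lower case marks up to 5 bases on either side, and the sequences are those of GENCODE M21.
Hist1h3c: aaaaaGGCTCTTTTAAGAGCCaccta
Hist1h2ap: aaaaaGGCTCTTTTCAGAGCCatc
Hist1h1c: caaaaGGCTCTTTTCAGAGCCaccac
Hist1h2ac: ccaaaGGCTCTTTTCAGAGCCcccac
Hist1h4i: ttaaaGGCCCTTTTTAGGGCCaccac

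Barcodes with at least 500 UMIs, at least 200 genes and at most 10% mitochondrial UMIs were kept as cells, 6510 and 6748 of them. A cell was called cycling at 3 or more UMIs of Mki67 and Top2a together, which gave 137 cells (2.104%, exact binomial interval 1.77 to 2.48) and 174 cells (2.58%, 2.21 to 2.99). Cycling cells were deeper, with a median of 17563 and 20876.5 UMIs against 5601 and 4195 in the others, and a fixed UMI limit calls deeper cells more readily. A further 75 and 74 cells stood just under the limit at 2 UMIs, and 19 and 26 just on it at 3. At least 500 UMIs were reached by 5 barcodes in both libraries. The CD11b sort held cells that met the rule for B cells, 1835 and 670 of the not cycling ones. Library totals were 48884220 and 46994991 UMIs.

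The clustered histone genes were concentrated in the few cycling cells. These held 5.64% and 8.16% of all UMIs of the cells but 38.4% and 46.0% of the 38810 and 64908 UMIs of the members. Summed over the members, the level was 5931 CPM (the UMIs of a gene scaled to the usual common library total) in cycling and 569 CPM in not cycling cells of the low-B12 library, a ratio of 10.4 (10.2 to 10.6). In the high-B12 library it was 8588 and 895 CPM, a ratio of 9.60 (9.45 to 9.75). These ratios depend on the cycling limit and on depth, and were 4.41 and 5.39 with a limit of 1 UMI and 3.86 and 4.94 with cells thinned to 2000 UMIs and called at 1 UMI. Levels of different members are UMI counts per transcript end and are not scaled by length.

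Members were called cycling-bound when they had at least 20 UMIs in each library and the lower bound of their ratio, cycling over not cycling, was above 4 in both. That held for 39 of the 61 members with enough UMIs, against 2.07% of the 13886 genes measured the same way. Members were called resting when they had at least 10 CPM in not cycling cells and an upper bound below 4 in both libraries. That held for 5 members, Hist1h2bc, Hist1h1c, Hist1h4i, Hist1h2ac and Hist3h2a, against 53.5% of genes. Another 17 met neither rule and are called intermediate, and 6 had too few UMIs to be classified, among them Hist1h2aa and Hist1h2ba with 0 UMIs in either library. With the limit at 1 UMI 24 members met the cycling-bound and 11 the resting rule, in thinned cells 9 and 8, and with each cell weighted alike 9 met the resting rule. The minimum of 20 UMIs also held in thinned cells, so a member can drop out there by too few UMIs alone. Shares over all genes were not counted for these alternatives. A level of 10 CPM or more in not cycling cells of both libraries was reached by 15 of the 61, against 54.1% of genes.

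**Figure D1:**
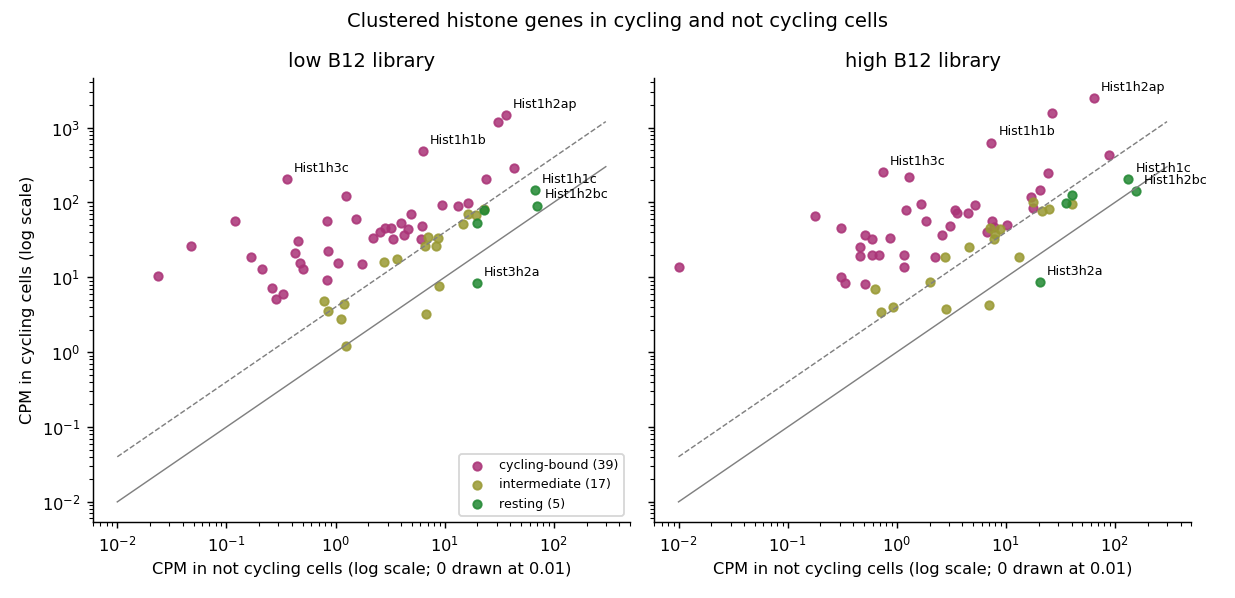
Each point is 1 of the 61 classified members, with its CPM in not cycling cells on the x axis and in cycling cells on the y axis, both on log scales, for each library. The solid line marks equal levels and the dashed line a ratio of 4. The 39 cycling-bound members lie above the dashed line, and Hist3h2a lies below the solid line in both libraries.

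H2A genes carried most of the cycling signal. Hist1h2ap stood at 1460 and 2477 CPM in cycling cells and at 36.3 and 64.2 CPM in the others, a ratio of 40.2 (37.9 to 42.7) and 38.6 (36.9 to 40.4). Hist1h2ae stood at 1170 and 1579 CPM in cycling cells, with ratios of 37.8 and 59.9. Both genes were the most abundant members in cycling cells of either library, yet their values are uncertain as values of single genes, because H2A copies are near-identical. All of the 50-base words in the last 400 bases of the Hist1h2ap transcript, and 44.2% of those of Hist1h2ae, also occur in another member, and how the authors' counting treated reads that match several genes is not given in the sources used here. H2A genes made up 54.1% and 57.2% of member UMIs in cycling cells but 25.9% and 22.9% in the others.

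The steepest ratios belonged to H3 and H2A copies that were almost missing outside the cycle. Hist1h3c had 204 and 253 CPM in cycling cells and 0.36 and 0.74 CPM in the others, a ratio of 573 (344 to 1031) and 342 (236 to 513), resting on 15 and 29 UMIs in not cycling cells. Hist1h3b had ratios of 544 (145 to 4588) and 148 (82.5 to 293), and Hist1h2af of 472 (198 to 1477) and 373 (178 to 938). Hist1h2ab stood at 98.9 and 170. These values too are uncertain as values of single genes. The 50-base words shared with another member made up 53.8% for Hist1h3c, 67.2% for Hist1h3b, 79.7% for Hist1h2af and 70.1% for Hist1h2ab. After every cell was thinned to 2000 UMIs, which left out 477 and 753 shallower not cycling cells, 25.0% of 136 and 34.5% of 171 cells called cycling at full depth had a Hist1h3c UMI, against 0.017% and 0.12% of the others. Hist1h2ah, with 26 and 48 UMIs in cycling cells and 1 and 0 in the others, had too few UMIs to be ranked among members with at least 50 in each library.

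Linker histones fell on both sides of the division. Hist1h1b, which encodes H1.5, had 487 and 630 CPM in cycling cells and 6.30 and 7.33 CPM in the others, a ratio of 77.3 (67.7 to 88.7) and 85.9 (75.9 to 97.5). Hist1h1a, encoding H1.1, and Hist1h1d, encoding H1.3, were also cycling-bound, with ratios of 9.69 and 15.4 and of 9.66 and 7.08. Hist1h1e, encoding H1.4, was just over the limit at 6.63 (6.08 to 7.23) and 4.85 (4.56 to 5.16), with 43.6 and 87.8 CPM in not cycling cells. Its annotated transcript overlaps that of Hist1h2be on the same strand, so reads of these neighbours may not be separable. Hist1h2be, an intermediate H2B gene, stood at 22.9 and 40.3 CPM in not cycling and 82.4 and 94.9 CPM in cycling cells. Hist1h1c, encoding H1.2, was a resting member at 67.2 and 132 CPM in not cycling cells and 146 and 205 CPM in cycling cells, a ratio of 2.17 (1.94 to 2.42) and 1.55 (1.43 to 1.68). H1 genes made up 22.9% and 28.1% of member UMIs in not cycling cells, above their 17.7% and 17.0% in cycling cells.

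The other resting members were an H2B, an H4 and a pair of H2A genes. Hist1h2bc was the most abundant member outside the cycle at 70.4 and 157 CPM, with 90.4 and 142 CPM in cycling cells, a ratio of 1.28 (1.12 to 1.47) and 0.909 (0.828 to 0.996). The low-B12 ratio lay below 1 under 4 alternatives, between 0.581 and 0.905. Hist1h4i stood at 19.98 and 35.3 CPM in not cycling cells with ratios of 2.69 and 2.75, and Hist1h2ac at 23.1 and 40.8 CPM with ratios of 3.40 and 3.04. Hist3h2a, an H2A gene on chromosome 11 whose annotated exons overlap Trim17 on the same strand, was lower in cycling cells, at 8.36 and 8.62 CPM against 19.8 and 20.4 CPM, a ratio of 0.42 (0.26 to 0.65) and 0.42 (0.28 to 0.61). Its neighbour Hist3h2ba, intermediate by its low level, had ratios of 0.47 and 0.61, and Hist4h4, the single member on chromosome 6, of 0.84 and 1.42.

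By family, the H4 genes had the median ratio nearest the limit of 4, at 4.24 and 5.83. Of 13 H4 genes 4 were cycling-bound, 8 intermediate and 1 resting. Hist1h4d was the most abundant, at 204 and 249 CPM in cycling cells and ratios of 8.50 and 10.2. Far above the limit were Hist1h4k at 32.6 and 28.3, Hist1h4f at 27.4 and 32.8 and Hist1h4j at 14.8 and 11.5. Just inside the limit stood the H2B gene Hist1h2bg, at 5.43 and 5.90, and the H2A gene Hist2h2ac, at 6.81 and 4.81. Just outside it stood Hist1h4m, at 4.85 (3.77 to 6.18) and 4.83 (3.91 to 5.93), and the H3 gene Hist2h3b, at 5.68 (3.86 to 8.19) and 6.61 (4.77 to 9.08). For H2B genes the division was 12 cycling-bound, 3 intermediate and 1 resting, and for H3 genes 8, 3 and 0.

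The cycling-bound genes lay in the large cluster on chromosome 13 with 2 exceptions. That cluster held 37 cycling-bound, 9 intermediate and 4 resting members, and the chromosome 3 cluster 2, 6 and 0. In the annotation, 13 neighbouring pairs of members are transcribed away from each other from starts 175 to 659 bases apart. In 11 of these pairs both members were classified, and in 10 both had the same category. The Hist1h2ac and Hist1h2bc pair, with 250 bases between, was the pair in which both were resting, and 9 pairs were cycling-bound on both sides. In the pair that differed, Hist2h2ac was cycling-bound and Hist2h2be intermediate. Cycling-bound members made up 39 of the 61 classified, so many pairs can match by that share alone, and its part was not tested.

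Length of the transcript past the stem-loop differed between the categories. The annotated transcript went on for a median of 51 bases past the site in the 25 cycling-bound members with a site, 77 bases in 14 intermediate members and 1241.5 bases in 4 resting members. At least 300 bases past the site were annotated for 8 of the 25, 5 of the 14 and 4 of the 4, and a poly(A) signal (AATAAA or ATTAAA) followed it in 5, 7 and 4. Hist1h3c ends 74 bases and Hist1h2ap 3 bases after the stem-loop printed above, while Hist1h1c goes on for 840, Hist1h2ac for 2010 and Hist1h4i for 330 bases. Hist1h2bc has no match to the pattern in its annotated transcript, which carries 742 bases after the stop codon and a poly(A) signal. For 10 cycling-bound members no bases are annotated after the stop codon, among them Hist1h1b, so the search could not find a site there. Shared transcript-end sequence, measured as above in words also found in another member, differed too. Its median share was 58.4% in cycling-bound, 53.8% in intermediate and 0% in resting members. All 5 resting members stood at 0%. So did the cycling-bound Hist1h1a, Hist1h1b, Hist1h1d, Hist1h2bh, Hist1h3d, Hist1h4d, Hist1h4j and Hist2h2bb. Intermediate members at 0% were Hist1h2be, Hist1h4c, Hist2h2be, Hist2h3c1, Hist2h4, Hist3h2ba and Hist4h4. The parts of length and of shared sequence in the categories were not tested.

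**Figure D2:**
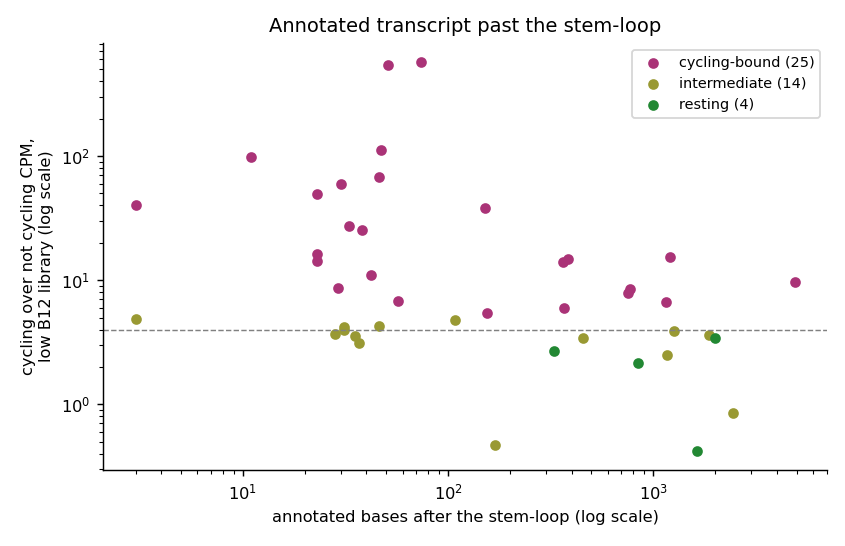
Each point is 1 member with an annotated stem-loop site, by the number of annotated bases after the site (x axis, log scale) and the cycling over not cycling CPM ratio of the low-B12 library (y axis, log scale), with a dashed line at a ratio of 4. The 4 resting members lie at 330 bases or more, and cycling-bound members lie at both short and long distances.

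Promoters of 61 members, 250 bases before to 50 after the start, were matched in RefSeq on GRCm38.p6. Motifs were looked for on both strands apart from TATAAA, which was read on the gene's strand. CCAAT was held by 52 of the 61 (85.2%) against 37.4% of all 32851 promoters of that length, the TATA box TATAAA by 30 (49.2%) against 8.32%, and the octamer ATGCAAAT by 13 (21.3%) against 1.74%. A match to TTTCGCGC or TTTGGCGC, forms of the E2F site, was held by 9 (14.8%) against 0.813%, and all 9 were cycling-bound members out of 37 with a promoter. These 9 promoters hold 5 distinct sites, since 8 of the members form 4 divergent pairs whose promoter windows overlap and share 1 site each, and the other motif counts can include such shared stretches too. GGGCGG was about as common as elsewhere, at 37.7% against 35.7%. The 250 bases before the start are printed for a pair of H2A genes on opposite sides of the division, with matches to the CCAAT box, the octamer, the TATA box and the E2F forms in capitals. Hist1h2af is at chr13:23533625-23533874 on the plus strand and Hist1h2ac at chr13:23683960-23684209 on the minus strand, in the space it shares with Hist1h2bc.
Hist1h2af: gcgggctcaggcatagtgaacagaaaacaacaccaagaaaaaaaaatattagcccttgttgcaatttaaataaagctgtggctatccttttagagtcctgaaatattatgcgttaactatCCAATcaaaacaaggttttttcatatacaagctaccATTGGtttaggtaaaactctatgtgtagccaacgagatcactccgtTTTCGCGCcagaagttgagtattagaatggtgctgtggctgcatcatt
Hist1h2ac: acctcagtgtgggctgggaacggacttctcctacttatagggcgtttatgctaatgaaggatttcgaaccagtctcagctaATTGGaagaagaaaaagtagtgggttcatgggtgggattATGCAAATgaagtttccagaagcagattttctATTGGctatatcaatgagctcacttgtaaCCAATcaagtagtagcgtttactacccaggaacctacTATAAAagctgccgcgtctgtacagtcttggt
A match is a description of these letters only, and 4 resting members have a promoter in the table.

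Other histone and cell cycle genes give the scale. Over the 13886 measured genes the median ratio, cycling over not cycling, was 0.770 and 0.683. All resting members apart from Hist3h2a stood above that median in both libraries. The 11 replacement histones together had a ratio of 1.44 and 1.35, with H3f3b, which encodes H3.3, at 2158 and 1990 CPM in cycling and not cycling cells of the low-B12 library. The list of 36 S phase genes had a summed ratio of 5.77 and 6.54 with 27 cycling-bound, and the list of 36 G2 and M phase genes 10.5 and 9.16 with 33 cycling-bound. Of 22 genes for transcribing and processing histone mRNA 0 were cycling-bound, and Slbp itself had a ratio of 2.37 in the low-B12 library. Of 23 histone chaperones 4 were cycling-bound, with Asf1b at 38.6 and Chaf1a at 13.7 in the low-B12 library.

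Within the cycling cells, members were highest where both phase lists were high. Cycling cells were divided at the median CPM of the S phase and of the G2 and M phase list. With both lists high, the members summed to 12747 CPM in 27 low-B12 cells and 18250 CPM in 40 high-B12 cells. With the G2 and M list alone high they summed to 7312 and 9502 CPM in 35 and 53 cells, with the S list alone high to 3114 and 5395 CPM in 43 and 45 cells, and with neither high to 1780 and 2077 CPM in 32 and 36 cells. The order was the same in both libraries. Hist1h3c followed it, at 431 and 563 CPM with both lists high and 35.8 and 29.9 CPM with neither, while Hist3h2a stayed between 4.4 and 13.1 CPM in all 8 groups. The low-B12 group with neither list high was shallower, at a median of 9826 UMIs against 16964 to 19280. In high-B12 cycling cells the S list stood at 3459 CPM in the progenitor class (Elane, Mpo and Prtn3) and 1990 CPM in the neutrophil class. The G2 and M list stood at 1751 and 2991 CPM there. The parts of depth, class and the choice of cells by Mki67 and Top2a were not tested.

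**Figure D3:**
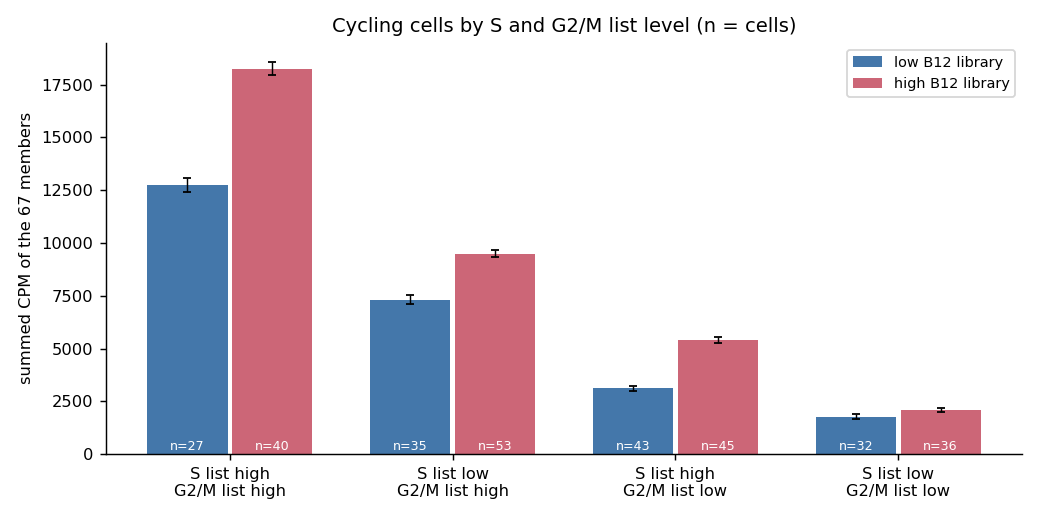
Bars are the summed CPM of the members in cycling cells, grouped by whether the S phase and the G2 and M phase list are above their median, with exact Poisson intervals and cell numbers at the foot. Both libraries are highest where both lists are high, at 12747 and 18250 CPM.

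In not cycling cells the resting and the cycling-bound members differed in how they followed the S phase list. Summed over the 5 resting members, cells with 0 S list UMIs had 383 and 698 CPM, cells with 1 to 4 had 195 and 344 CPM and cells with 5 or more 160 and 228 CPM. Over the 39 cycling-bound members these values were 236, 236 and 238 CPM for low B12 and 360, 326 and 347 CPM for high B12. Median UMIs per cell rise along these groups from 2756 to 9070 and from 2839 to 9873, so depth moves with them. Of the not cycling classes compared below, the neutrophil class had the lowest S list level, at 245 and 229 CPM. That class also had the highest sum of resting members, at 403 and 570 CPM. The parts of depth and of cell class in the result were not tested.

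The rule's cell classes were then compared in not cycling cells, using classes of at least 20 cells. Resting members were highest in the neutrophil class (S100a8 and S100a9 at 5% of UMIs or more), at 403 and 570 CPM. They stood at 253 and 428 CPM in cells of no class, 194 and 243 CPM in the monocyte class, 148 and 199 CPM in the NK class and 125 and 197 CPM in the B cell class. Intervals of neighbours did not overlap except between the NK and the B cell class of the high-B12 library. Hist1h2bc was at 169 and 247 CPM in the neutrophil class and 23.1 and 38.7 CPM in the NK class, and Hist1h1c at 153 and 208 CPM in the neutrophil class and 49.5 and 69.3 CPM in the B cell class. Hist3h2a went the other way, with 10.6 and 10.9 CPM in the neutrophil class and 23.0 and 29.5 CPM in the monocyte class. The cycling-bound sum spread less, from 167 and 217 CPM in the B cell class to 292 and 393 CPM in the NK class.

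**Figure D4:**
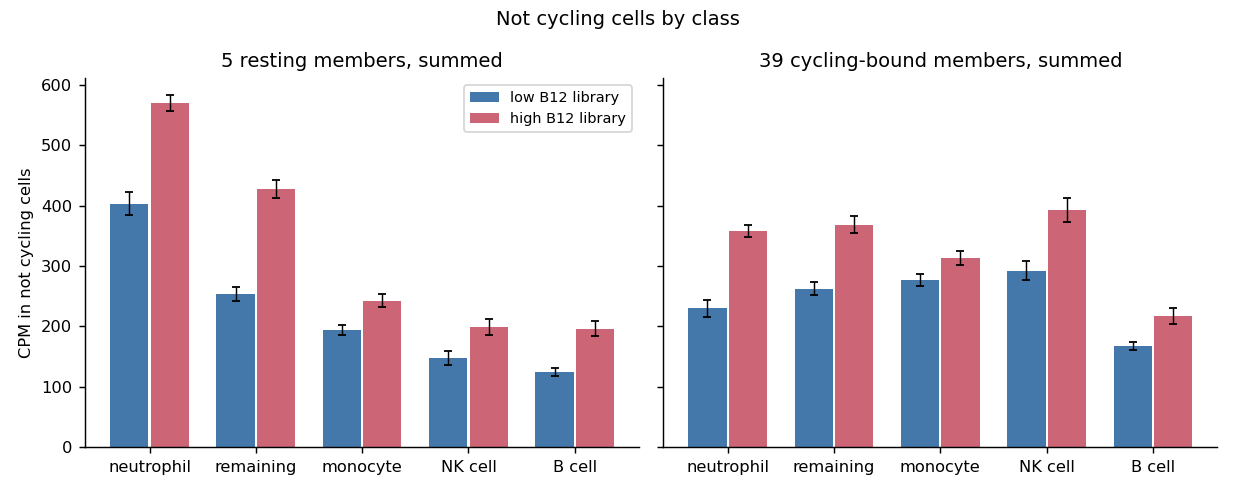
Bars are summed CPM in not cycling cells of each class, for the 5 resting members on the left and the 39 cycling-bound members on the right, with exact Poisson intervals. Resting members are highest in the neutrophil class of both libraries, at 403 and 570 CPM.

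Free RNA in droplets bears on the low levels outside the cycle. In barcodes of fewer than 100 UMIs the cycling-bound members summed to 324 and 837 CPM, above the 236 and 337 CPM of not cycling cells. The resting members summed to 230 and 432 CPM there, against 201 and 385 CPM. Hist1h3c stood at 3.77 and 11.0 CPM there, above its 0.36 and 0.74 CPM in not cycling cells. Levels in not cycling cells were thus mostly at or below those of near-empty droplets, for resting members too. Of the 39 cycling-bound members 34 were below the droplets in both libraries and 0 above in both. Of the 5 resting members Hist1h1c, Hist1h4i and Hist3h2a were below in both, and Hist1h2bc, at 70.4 and 157 CPM, was about level with its 70.3 and 148 CPM in droplets. Summed resting members of the neutrophil class, at 403 and 570 CPM, were above the droplets, and those of the B cell, NK and monocyte classes were below. The part of free RNA in the levels of not cycling cells was not tested. Among not cycling cells, 1 and 12 had more than 20 cycling-bound UMIs, and in the high-B12 library these 12 held 5.26% of the cycling-bound UMIs of such cells. One neutrophil-class cell had 347 of them, 155 from Hist1h2ap, with 2 UMIs of Mki67 and Top2a and 16 of the S list.

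Members stood higher in the high-B12 library in both cell states. In cycling cells the sum was 5931 and 8588 CPM, a ratio high over low of 1.45 (1.42 to 1.48), and 16 of 53 members with at least 50 UMIs stood higher by 1.5 times or more with an interval excluding 1, against 2.42% of all genes. By the same rule 0 of the 53 stood lower, against 25.4% of genes, and their median ratio was 1.40 against 0.81 over all genes. In not cycling cells the sum was 569 and 895 CPM, a ratio of 1.57 (1.55 to 1.60), with 13 of 48 higher, against 6.83%, and 1 lower, Hist1h4b, against 19.1%. The median was 1.14 against 0.83 over all genes. The median gene was lower in the high-B12 library, by 0.31 on the log2 scale in cycling and 0.28 in not cycling cells. Relative to the median gene the members were higher still. Empty droplets moved the same way, at 734 and 1603 CPM.

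Over all not cycling cells the resting members' sum had a ratio of 1.92 (1.87 to 1.97), against 1.43 (1.39 to 1.46) for the cycling-bound sum. Within the neutrophil class the order turned, at 1.41 and 1.56, and in the NK class the ratios were both about 1.35. The order held in the B cell class at 1.58 and 1.30, the monocyte class at 1.25 and 1.13 and cells of no class at 1.69 and 1.40. Hist1h2bc went from 70.4 to 157 CPM, a ratio of 2.22 (2.13 to 2.32), and Hist1h1c from 67.2 to 132 CPM, 1.97 (1.88 to 2.06), while Hist3h2a stayed at 19.8 and 20.4 CPM, 1.03. Among cycling-bound members Hist1h1e had 2.01 (1.90 to 2.13), Hist1h1d 2.16 (1.92 to 2.45) and Hist1h2br 2.43 (2.03 to 2.92). Hist1h2ae went from 31.0 to 26.4 CPM, 0.852 (0.78 to 0.93), and Hist1h2ai from 2.57 to 1.87 CPM, 0.726 (0.53 to 0.99). Next lowest were Hist1h3i at 0.906 (0.72 to 1.14) and Hist1h1a at 0.928 (0.72 to 1.19), both with intervals that include 1. In cycling cells the highest ratios among members with at least 50 UMIs in each library were 1.81 for Hist1h2ab and Hist1h4i, 1.77 for Hist1h4n and 1.75 for Hist1h3b. The lowest were 0.897 for Hist2h2bb, 0.935 for Hist2h2ac, 1.07 for Hist1h2bm and 1.09 for Hist1h2bh, all with intervals that include 1.

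**Figure D5:**
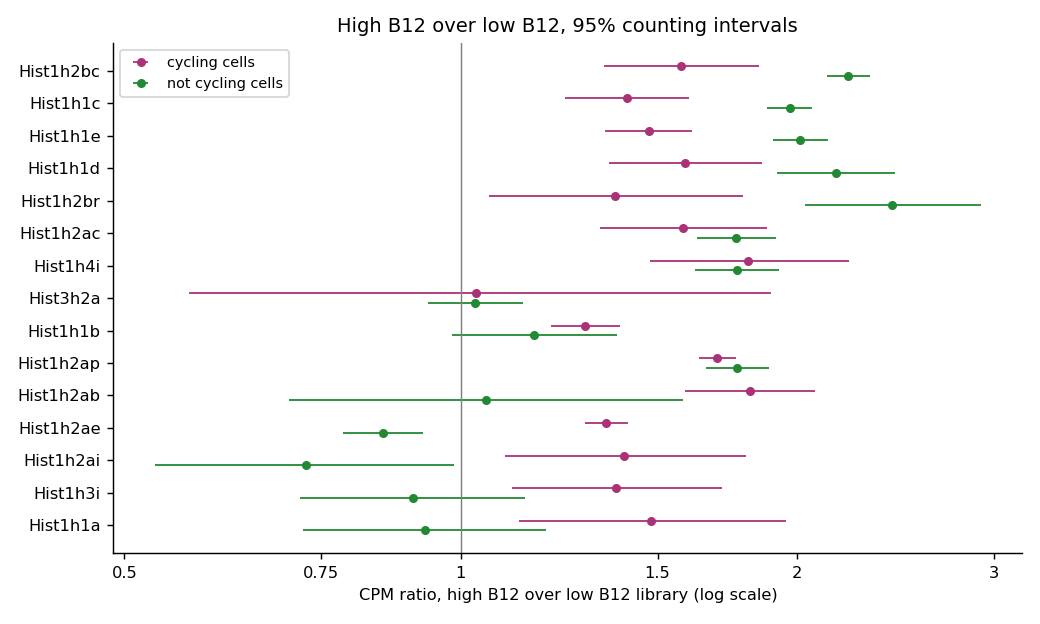
Points are the CPM ratio of the high-B12 over the low-B12 library for 15 members in cycling and in not cycling cells, with 95% counting intervals on a log axis. Hist1h2bc, Hist1h1c, Hist1h1e and Hist1h1d lie at about 2 in not cycling cells, and Hist1h2ae lies below 1 there and above 1 in cycling cells.

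Cell classes moved with the libraries, and the difference was smaller within most of them. The neutrophil class held 882 of 6373 and 2548 of 6574 not cycling cells, and the summed neutrophil markers stood at 26609 and 102110 CPM. Within classes the not cycling sum had a ratio of 1.41 in the neutrophil, 1.38 in the B cell, 1.31 in the NK and 1.16 in the monocyte class and 1.56 in cells of no class. In the neutrophil class 7 of 30 members stood higher by 1.5 times or more, against 1.17% of genes, and 0 lower, against 12.3%. In the B cell class 7 of 31 stood higher, against 2.4%, and 0 lower, against 7.21%. In the NK class these were 5 of 27, against 1.66%, and 0, against 6.46%. The monocyte class had 2 of 34 higher, against 1.66%, and 1 lower, Hist1h4n, against 4.55%. Cells of no class had 14 of 34 higher, against 5.41%, and 0 lower, against 6.65%. In these classes Hist1h2bc was between 1.45 and 1.86 and Hist1h1c between 1.16 and 1.98, all higher in the high-B12 library. Cycling neutrophil-class cells, 48 and 103 of them, had 7767 and 8594 CPM, a ratio of 1.11 (1.08 to 1.14), with 1 of 49 members higher by the rule, against 1.65% of genes, and 2 lower, Hist2h2ac and Hist2h2bb, against 9.78%. Cycling cells of no class, 35 and 23, had 4787 and 8003 CPM, a ratio of 1.67 (1.58 to 1.77), with 6 of 15 members higher, against 3.76% of genes, and 0 lower, against 12.4%. In these cells all 5 mast cell and basophil markers were at 0 for low B12 and summed to 1877 CPM for high B12, and the part of this in the ratio was not tested.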

How the data were processed

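The authors deposited unnormalized UMI counts of each gene for every barcode. Per the file headers these come from Cell Ranger 4, whereas version 2.1.1 is named in the submitters' processing notes. The other deposited files list barcodes and gene IDs with symbols. For the genome build and for reads matching several genes, the treatment is not given in the sources used here. GENCODE M21 held 32235 (99.8%) of the IDs, and from it positions and transcripts were taken. No doublets were removed. Scrublet, within scanpy 1.11.5, called 475 (7.30%) and 329 (4.88%) cells, left out as an alternative. Classes were assigned by first match in this order: Elane, Mpo and Prtn3 at 10 UMIs or more, S100a8 and S100a9 at 5% of UMIs, Cd79a and Cd79b at 3, Ncr1 and Klrb1c at 2, Csf1r at 2. UMIs were summed over cells and scaled to CPM, and ratios carry exact conditional binomial intervals (scipy 1.17.1). The calculation was checked on simulated Poisson totals. These hold no clumping of UMIs within cells, so the check does not show how the intervals cover in these data. There was no test, since each condition is 1 library. The members and lists were chosen with earlier results of these data known. Any member could be named. The naming rule took the 8 of highest CPM in each state, the H1 genes with 20 UMIs in each library, and the 4 of highest and lowest ratio between states and between libraries among those with at least 50 UMIs in each library or group compared.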

Additional observations from a re-analysis of the deposited data

Results flagged for a closer look

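The high-B12 over low-B12 ratio of Hist1h2ai was 1.40 in cycling and 0.726 in not cycling cells, and that of Hist1h2ae was 1.35 and 0.852, each with intervals on opposite sides of 1. The cycling over not cycling ratio of Hist1h2bc was 1.28 for low B12 and 0.909 for high B12, also with intervals on opposite sides of 1. These differences were not tested.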

How the results depend on the processing

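No paired analysis was possible because each condition has 1 library, so no replicate could be left out either. A pair of alternatives was chosen after seeing the data, namely not cycling cells with 0 UMIs of Mki67, Top2a and the S phase list, and leaving out not cycling cells above 20 cycling-bound UMIs. Alternatives were run for the 61 classified members, and the cause of each shift was not tested. The share of cycling cells became 1.54% and 1.90% at a limit of 5 UMIs, 8.42% and 7.75% at 1 UMI and 3.45% and 3.70% in thinned cells. The cycling-bound rule, met by 39 members, was met by 24 at 1 UMI and 9 in thinned cells, and the resting rule, met by 5, was met by 11 and 8 and, with each cell weighted alike, by 9. These are counts and do not say which members. They have no share over all genes beside them, and thinning leaves fewer members with the minimum of 20 UMIs.

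The summed cycling over not cycling ratio was 10.2 and 9.76 at 5% mitochondrial UMIs, 11.2 and 10.2 without Scrublet doublets, 12.4 and 11.7 at 5 UMIs, 4.41 and 5.39 at 1 UMI, 3.86 and 4.94 thinned, 7.74 and 7.23 with each cell alike, 8.86 and 7.92 with classes alike, 7.48 and 6.77 against cells with 0 S list UMIs, and 9.80 in the high-B12 library without the histone-rich cells. The summed high over low ratio in cycling cells was 1.88 at 1 UMI, 2.22 thinned, 1.76 with each cell alike, 1.32 with classes alike and 1.80 scaled by the median gene. In not cycling cells it was 1.51 at 5% mitochondrial UMIs, 1.54 against cells with 0 Mki67 and Top2a UMIs, 1.73 thinned, 1.89 with each cell alike, 1.37 with classes alike, 1.90 scaled by the median gene and 1.54 without the histone-rich cells.

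Among single members' ratios whose interval as reported excluded 1, the value passed to the other side of 1 as follows. Ratios whose interval as reported included 1 were not followed in this way. Only Hist1h2bc at 0.581 (0.50 to 0.68) and Hist1h1c at 0.809 (0.74 to 0.88) had an interval that excludes 1. Values with each cell or classes alike carry no interval, and all others had an interval that includes 1. The thinned low-B12 values of 0 had upper bounds from 4.45 for Hist1h4b to 1092 for Hist1h4f. For cycling over not cycling in the low-B12 library, Hist1h2bc became 0.905 at 1 UMI, 0.841 thinned, 0.732 with classes alike and 0.581 against cells with 0 S list UMIs, Hist3h2ba 1.06 with classes alike, and in thinned cells Hist2h2aa1 became 0.586, Hist1h2bg 0.824, Hist1h2be 0.795, and Hist2h2ab, Hist1h3h, Hist1h2bk, Hist1h4f and Hist1h4b 0. In the high-B12 library Hist4h4 became 0.995 with each cell alike and Hist1h1c 0.809 against cells with 0 S list UMIs. For high over low in cycling cells, Hist1h3c became 0.936 with classes alike and Hist1h4a 0.937 thinned. In not cycling cells Hist1h2ai became 1.04 thinned and 1.02 with each cell alike, Hist1h2ae 1.03 scaled by the median gene, Hist1h3g 0.505 and Hist1h3d 0.951 thinned, and Hist1h3c 0.848 with each cell alike. Against cells with 0 S list UMIs, Hist1h3g became 0.527, Hist1h3c 0.527, Hist1h4c 0.936 and Hist1h4a 0.911.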
